A study of Mus musculus with 6 samples.

Results

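The 34 genes described here build the apical face of an intestinal epithelial cell, namely the cytoskeleton of its microvilli, the machinery that sets apical polarity and the proteins of the tight junction. They were taken by symbol, through their Entrez IDs, from a table of read counts for 24594 gene IDs, and all 34 were found. All 34 also passed the expression filter that left 12909 genes for testing. Tmigd1, with at most 14 counts in any control, passed it only through its doxycycline libraries, where it was high. The list names genes by what they do, but it was drawn up with earlier results of these data known, so its counts are not independent evidence of a direction.

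An absorptive cell carries a brush border, a dense array of microvilli. Each microvillus has a core of parallel actin filaments held by bundling proteins and tied to the membrane by myosins and ezrin. Cadherins at the tips link neighbouring microvilli, and the cores end in a terminal web of spectrin and myosin. The Par and Crumbs complexes mark the apical domain, vesicle carriers deliver enzymes and transporters to it, and tight junctions seal the gap between cells at its edge.

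RNA was sequenced from mouse epithelial organoids of the proximal small intestine. Organoids are epithelial structures grown in gel, here with EGF at 50 ng/ml, Noggin at 100 ng/ml and R-spondin1 at 500 ng/ml. All carried the genotype TetON-hYAP/H2B-mCherry, in which doxycycline switches on a human YAP, the transcriptional coactivator that Hippo signalling restrains, with a red histone. YAP is described as a constitutively active mutant. The doxycycline group (3 libraries) received 1 µg/ml for 48 h after passaging, and the control group (3 libraries) received none, so the transgene was present in both. The sources used here do not give the promoter that drives the doxycycline-responsive activator, or whether a control and a doxycycline library shared an animal. The cultures were adult per the series' design text, and per the labels' protocol crypts of a sample came from a single individual. Doxycycline was not given to organoids lacking the transgene among these libraries, so the effects of the drug and of YAP cannot be told apart. The comparison asks which genes differ once active YAP is induced. P-values measure the spread between these libraries only.

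Library totals ran from 8533452 counts in control replicate 3 to 16803062 in doxycycline replicate 3. Levels are CPM, the usual measure of a gene's reads relative to its library size, with library sizes scaled by TMM, a method that uses the bulk of the genes. Its factors were 1.163 to 1.169 in controls and 0.843 to 0.879 with doxycycline. Control replicate 3 stood apart, with correlations of 0.916 and 0.919 to the other controls, which correlated at 0.991 with each other. The doxycycline libraries correlated at 0.986 to 0.99. Epithelial identity was present in all libraries, as the epithelial adhesion gene Epcam lay between 401.9 and 907.9 CPM and Cdh1, which encodes E-cadherin, between 643.1 and 1338 CPM. The 8 mesenchymal markers summed to at most 1.01 CPM in any library, with 3 of them at 0 counts throughout. The 6 immune markers summed to at most 7.13 CPM and the 4 endothelial markers to at most 2.26 CPM.

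With doxycycline, 27 of the 34 genes rose, none fell and 7 did not pass the threshold (edgeR quasi-likelihood test, Benjamini-Hochberg adjusted p under 0.05 over all genes tested). Across all genes tested, 21.7% rose and 23.6% fell, 45.3% in all. A rise of at least 2-fold was seen for 21 of the 34, against 15.3% of all genes. The doxycycline libraries lay wholly above the controls for 30 of the 34, against 30.0% of all genes, and wholly below for 1, against 31.3%. The median log2 fold change of the 34 was 1.27, with a range of -0.62 to 5.73, and that of all genes was -0.08. Summed over the 34 genes, the level was 4244, 4411 and 5426 CPM in controls and 12740, 12920 and 12830 CPM with doxycycline. The highest rises on the log2 scale were those of Tmigd1, an adhesion protein of the microvillus membrane, Cdhr2, a cadherin of microvillus tips, and Pard6b, a scaffold of the apical Par complex.

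Directions are relative to the TMM scale. With total counts as the only scaling, the median of all genes was -0.53 (1747 higher and 5131 lower, or 25.4% of calls higher against 47.9% with TMM). On that scale 18 of the 34 genes were higher and 2 lower (Eps8l3 and Marveld2), against 13.5% and 39.7% of all genes. The median of the 34 was 0.83. Without control replicate 3, 31 were higher and the same pair was lower, where 34.9% of all genes were higher and 35.1% lower. Without doxycycline replicate 2, 18 were higher, where 14.9% of all genes were. Of the 27 genes that rose, 17 passed under all 14 alternatives and none changed direction under any of them. The share of all called genes that did so was not computed, so these counts do not set the 27 genes apart.

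Markers of epithelium in general and of other epithelial cells moved with the same contrast. The 6 general epithelial genes summed to between 4177 and 5194 CPM in controls and between 17930 and 19150 CPM with doxycycline. Of these, 5 rose, namely the keratin genes Krt8, Krt18 and Krt19 (log2 2.68, 2.90 and 2.47), Cdh1 (0.70) and the claudin gene Cldn7 (0.70), and Epcam did not pass (log2 -0.14, adjusted p = 0.745). With total counts 3 of the 6 were higher and 0 lower. Without control replicate 3, which had the highest Epcam level, all 6 were higher, where 34.9% of all genes were. The 6 crypt base stem cell markers summed to between 3934 and 5366 CPM in controls and between 44.2 and 50.8 CPM with doxycycline, and all 6 fell. The 6 Paneth cell markers summed to between 2308 and 4717 CPM in controls and between 52.3 and 58.5 CPM with doxycycline, and 5 of 6 fell. All 6 goblet cell markers fell, from a sum of 51.4 to 102.4 CPM down to 1.52 to 2.59 CPM. Of the 6 enteroendocrine markers tested, 4 fell, and the summed level of that list was 350.3 to 523.8 CPM in controls and 184.1 to 215.6 CPM with doxycycline. All 6 were lower without control replicate 3 and with total counts, where 35.1% and 39.7% of all genes were. Tuft cells, which have a microvillus bundle of their own, gave a summed marker level of 21.4 to 24.6 CPM in controls and 26.9 to 33.6 CPM with doxycycline. Of the 6 tested, 1 rose, Ptgs1 (1.04 to 10.1 CPM), and 2 fell, Pou2f3 (3.60 to 1.56 CPM) and Alox5ap (2.07 to 0 CPM). The mean of Dclk1 was higher (9.15 and 14.8 CPM) and those of Trpm5 (4.15 and 2.88 CPM) and Avil (2.76 and 1.46 CPM) lower, but none of these passed. In bulk libraries fewer cells of a type and less RNA per cell cannot be told apart, and the part of these shifts in the rises of the 34 genes was not tested.

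**Figure D1:**
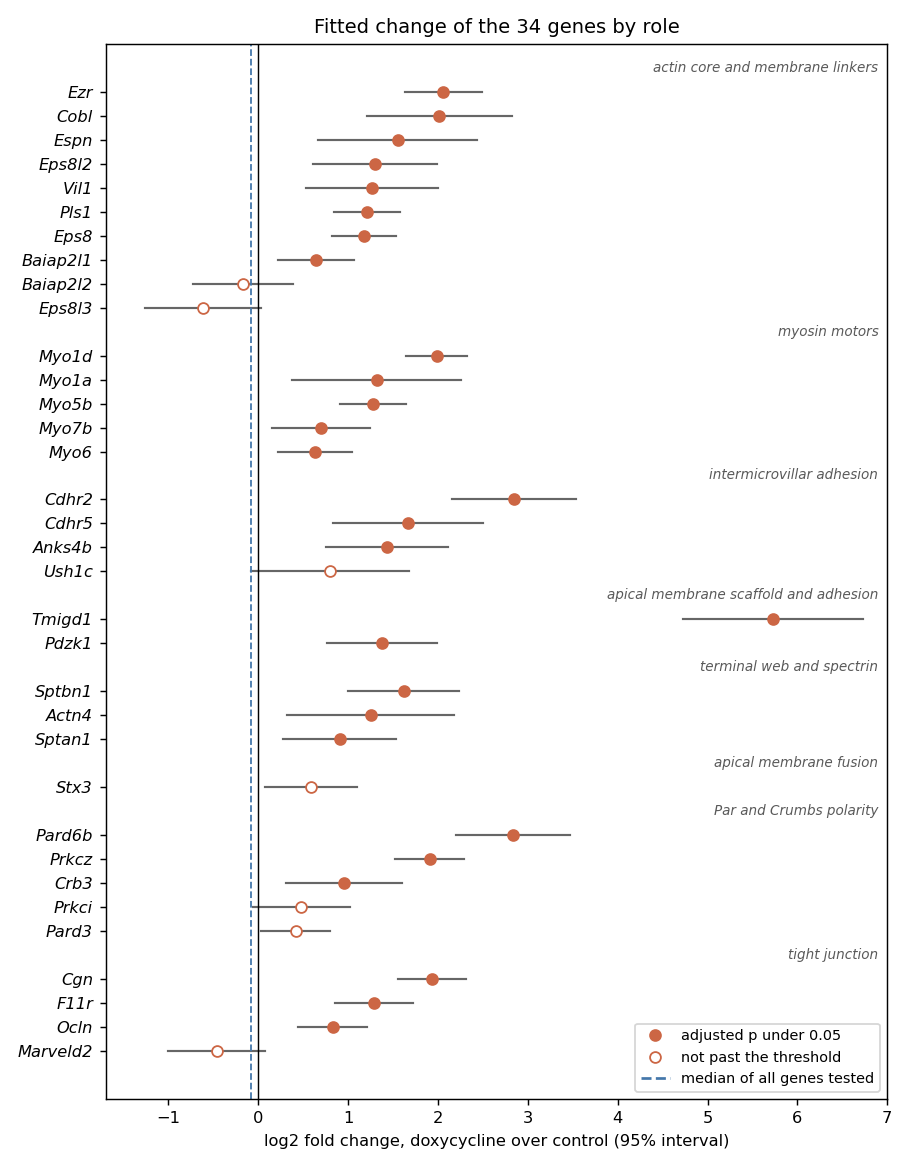
Fitted log2 fold change (doxycycline over control) of each of the 34 genes, grouped by role, with its 95% interval from the edgeR fit of 3 against 3 libraries. Filled points passed the adjusted threshold of 0.05, and the dashed line is the median of all 12909 genes tested, at -0.08. Of the 34 points 27 are filled, all of them right of 0, and Tmigd1 lies farthest right at 5.73.

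Promoter sequences are shown for 4 of the genes that rose, as examples of windows with a motif searched for. These genes are Tmigd1, with the highest rise on the log2 scale, and Ezr, Actn4 and Vil1, of the actin core and terminal web. The windows of Cdhr2 and Pard6b, whose log2 rises came next, held none of the motifs and are not shown. The sequences are the 250 bases before a start site from RefSeq (GRCm38.p6), 5′ to 3′ on the strand of the gene. Motif matches are in capitals, and positions are counted back from -1, the base before the start. Tmigd1 has 2 starts in that table, at chr11:76890870-76891119 and chr11:76901909-76902158 on the plus strand. Its upstream window holds CATTCC, which is the TEAD motif GGAATG on the other strand, from position -154, and the AP-1 motif TGANTCA, as TGAGTCA, from position -43. The downstream window holds the TATA box letters TATAAA from position -29. The window of Ezr (chr17:6782781-6783030, minus strand) holds TGACTCA from -32. That of Actn4 (chr7:28962333-28962582, minus strand) holds CATTCC from -216 and TGAATCA from -169. The window of Vil1 (chr1:74409134-74409383, plus strand) holds a CArG box, the motif of serum response factor, from -73, a motif added after the sequences were seen.
Tmigd1 upstream start: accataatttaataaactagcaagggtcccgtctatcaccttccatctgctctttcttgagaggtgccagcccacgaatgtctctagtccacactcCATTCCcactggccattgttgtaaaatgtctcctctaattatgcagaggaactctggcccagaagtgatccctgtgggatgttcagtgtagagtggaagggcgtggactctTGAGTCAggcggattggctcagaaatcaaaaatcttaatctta
Tmigd1 downstream start: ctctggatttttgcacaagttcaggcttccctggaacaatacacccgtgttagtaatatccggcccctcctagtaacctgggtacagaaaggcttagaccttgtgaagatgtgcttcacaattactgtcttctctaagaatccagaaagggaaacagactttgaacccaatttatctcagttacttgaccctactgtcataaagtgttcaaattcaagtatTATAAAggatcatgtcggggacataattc
Ezr: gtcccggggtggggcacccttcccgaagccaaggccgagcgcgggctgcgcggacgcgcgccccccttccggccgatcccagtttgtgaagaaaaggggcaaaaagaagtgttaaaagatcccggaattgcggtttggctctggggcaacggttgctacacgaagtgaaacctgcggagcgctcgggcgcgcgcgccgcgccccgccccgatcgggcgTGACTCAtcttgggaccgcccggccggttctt
Actn4: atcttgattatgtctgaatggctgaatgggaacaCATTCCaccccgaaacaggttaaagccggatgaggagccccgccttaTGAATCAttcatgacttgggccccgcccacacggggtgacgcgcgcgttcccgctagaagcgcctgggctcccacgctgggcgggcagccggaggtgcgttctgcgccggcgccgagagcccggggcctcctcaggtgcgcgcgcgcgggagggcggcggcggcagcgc
Vil1: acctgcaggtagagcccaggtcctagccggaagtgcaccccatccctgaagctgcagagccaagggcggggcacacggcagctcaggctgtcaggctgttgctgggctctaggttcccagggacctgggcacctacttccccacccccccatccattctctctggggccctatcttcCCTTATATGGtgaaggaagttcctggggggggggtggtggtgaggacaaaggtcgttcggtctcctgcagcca

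Over all members, 29 had an entry, with 41 windows, and Eps8, Myo1d, Myo5b, Myo7b and Baiap2l2 had none. The TEAD letters GGAATG, on either strand, were in 6 of the 41 windows (Actn4, Crb3, Eps8l2, Myo6, Prkci and Tmigd1) and in 12.6% of all 32851 windows of the table. TGANTCA was in 4 of 41 (Actn4, Ezr, F11r and Tmigd1) and in 6.75% of all. TATAAA was in 5 of 41 and in 12.4% of all. The HNF4 letters CAAAGTCCA were in none of the 41 and in 0.384% of all, and the CDX letters CAATAAA were in none and in 4.2% of all. The CArG box was in 1 of 41 and in 1.47% of all. No motif match overlapped another in the 5 windows printed. A match describes letters in a window, not a bound site.

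The actin core comes first. Villin, espin and plastin-1 bundle actin filaments, and 8 of the 10 genes of the core and its membrane links rose. Of all genes tested, 21.7% rose. With total counts 6 of the 10 were higher and 1 lower, against 13.5% and 39.7% of all genes. Vil1, which encodes villin (chromosome 1, 74409384 to 74435560), had 148.2, 159.9 and 317.8 CPM in the controls and 527.8, 493.3 and 483.0 CPM with doxycycline. The groups did not overlap, and control replicate 3 lay about midway between them. The log2 change of Vil1 was 1.27 (SE 0.311, edgeR adjusted p = 0.0152). Espn (espin) had 45.2, 41.3 and 105.5 CPM and then 178.3, 199.2 and 183.6 CPM, a log2 change of 1.55 (adjusted p = 0.014). Pls1 (plastin-1) was even within groups, with 231.6, 219.2 and 271.1 CPM in controls and 578.2, 555.9 and 534.3 CPM with doxycycline, a log2 change of 1.21 (SE 0.158, adjusted p = 0.0011). Control replicate 3 was thus the highest control for each of these bundling genes.

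Ezrin ties the actin core to the membrane. Its gene Ezr (chromosome 17, 6738131 to 6782780) had 225.4, 241.3 and 311.5 CPM in controls and 1112, 1058 and 1068 CPM with doxycycline. The lowest doxycycline library was over 3 times the highest control. The fitted change was 4.16-fold (log2 2.06, SE 0.183, adjusted p = 2.51e-04). Cobl, an actin nucleator placed at the base of microvilli, had 127.6, 116.5 and 51.6 CPM in controls and 360.4, 415.5 and 418.2 CPM with doxycycline, a log2 rise of 2.01 (SE 0.342, adjusted p = 0.00353). Here control replicate 3 was the lowest control, the reverse of Vil1 and Espn.

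Eps8 caps and bundles actin at microvillus tips, and Eps8l2 and Eps8l3 encode relatives of it. Eps8 had 119.7, 138.2 and 124.4 CPM in controls and 295.7, 299.3 and 270.3 CPM with doxycycline (log2 change 1.18, adjusted p = 0.00103). Eps8l2 had 113.2, 114.9 and 223.4 CPM and then 397.8, 359.8 and 351.8 CPM (log2 change 1.30, adjusted p = 0.0111). Both rose with no overlap between the groups, a separation in this direction that 30.0% of all genes had. Eps8l3 did not pass, at 59.96 ± 22.1 and 39.0 ± 4.85 CPM (SD, n = 3 each; log2 -0.62, 95% interval -1.27 to 0.03, edgeR adjusted p = 0.106), although every doxycycline library was below every control. Its log2 change was -0.27 without control replicate 3 (adjusted p = 0.0474) and -1.06 with total counts (0.0166). Exons of both genes overlap a gene on the other strand, by 32.2% of exon bases for Eps8l2 (B230206H07Rik) and 42.4% for Eps8l3 (4933431E20Rik). These partners moved the same way, B230206H07Rik from 119.6 ± 41.3 to 317.9 ± 25.4 CPM and 4933431E20Rik from 112.3 ± 14.99 to 72.3 ± 9.01 CPM. The use of strand in counting is unknown here, so reads of these pairs cannot be told apart.

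Baiap2l1 and Baiap2l2 encode membrane-bending proteins that recruit Eps8 and other actin regulators. Baiap2l1 rose from 57.5 ± 11.6 to 89.7 ± 1.12 CPM (log2 0.64, adjusted p = 0.0251). Baiap2l2 had 126.2 ± 39.4 and 112.1 ± 5.57 CPM, which did not pass (log2 -0.17, 95% interval -0.72 to 0.38, adjusted p = 0.584), and its sign was positive without control replicate 3 (0.13). The call of Baiap2l1 was lost with total counts (0.384) and with any library other than control replicate 3 left out (0.0799 to 0.0856). That of Vil1 was lost with total counts (0.0577) and without doxycycline replicate 1 (0.0553) or 2 (0.0515), and that of Espn without doxycycline replicate 2 (0.0519).

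All 5 myosin genes rose, where 21.7% of all genes did, and 2 of the 5 were higher with total counts, where 13.5% were. Myo1d and Myo1a encode class I myosins that bridge the core bundle and the membrane. Myo1d (chromosome 11, 80482126 to 80780055) had 411.8, 414.7 and 400.0 CPM in controls and 1644, 1591 and 1620 CPM with doxycycline, a 3.96-fold rise (log2 1.99, SE 0.145, adjusted p = 1.34e-04). These libraries were even within each group, control replicate 3 included. Myo1a had 57.6, 60.7 and 156.7 CPM in controls and 229.2, 232.2 and 222.9 CPM with doxycycline (log2 1.32, SE 0.399, adjusted p = 0.0327). Control replicate 3 was far above the other controls for Myo1a.

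Myo5b encodes the motor that carries recycling endosomes to the apical membrane. It had 74.6, 70.0 and 87.1 CPM in controls and 183.5, 193.0 and 185.5 CPM with doxycycline (log2 1.28, SE 0.156, adjusted p = 8.58e-04). Myo6, a motor that moves towards the minus end of actin and acts at the base of microvilli, rose from 268.0 ± 44.5 to 414.9 ± 11.7 CPM (log2 0.63, adjusted p = 0.0237). Myo7b, the motor of the tip adhesion complex, rose from 22.3 ± 6.42 to 36.1 ± 2.89 CPM (log2 0.70, adjusted p = 0.0432). The calls of Myo1a, Myo6 and Myo7b were lost with total counts (0.0988, 0.396 and 0.373) and with any doxycycline library left out (0.0758 to 0.131). Those of Myo1a and Myo7b were also lost without control replicate 1 or 2 (0.0775 to 0.129), and that of Myo7b with the length trend removed (0.39).

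The protocadherins Cdhr2 and Cdhr5 bind each other between microvillus tips, and Ush1c (harmonin) and Anks4b hold their tails in a complex with Myo7b. Of these 4 genes, 3 rose, where 21.7% of all genes did, and 3 were higher with total counts (13.5% of all genes). Cdhr2 (chromosome 13, 54701463 to 54736662) had 57.5, 64.1 and 31.7 CPM in controls and 324.4, 389.3 and 390.7 CPM with doxycycline. It rose 7.19-fold (log2 2.85, SE 0.292, adjusted p = 4.79e-04). Cdhr5 had 96.2, 101.5 and 226.8 CPM in controls and 467.1, 450.3 and 429.2 CPM with doxycycline (log2 1.67, SE 0.351, adjusted p = 0.00842). Control replicate 3 was thus the lowest control for one cadherin and the highest for the other.

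Anks4b, the scaffold, had 214.2, 193.4 and 100.9 CPM in controls and 435.3, 460.5 and 476.6 CPM with doxycycline (log2 1.43, adjusted p = 0.00692). Ush1c had 27.4 ± 15.2 and 47.6 ± 5.81 CPM, with overlapping groups, and did not pass (log2 0.80, 95% interval -0.08 to 1.68, adjusted p = 0.119). Its controls were 16.7, 20.6 and 44.8 CPM, and without control replicate 3 it passed (log2 1.37, adjusted p = 2.02e-08). Ush1c also passed with a GC trend removed from each library (0.0494).

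Tmigd1 (chromosome 11, 76891120 to 76916587) had 6, 14 and 14 read counts in the controls, or 0.351, 1.08 and 1.41 CPM. With doxycycline it had 480, 501 and 689 counts, or 48.5, 46.4 and 48.7 CPM. Controls held at most 14 counts and doxycycline libraries at least 480, with CPM nearly equal among the latter. Its log2 change was 5.73 (SE 0.422, 95% interval 4.73 to 6.73, adjusted p = 1.49e-04). Pdzk1, a PDZ scaffold of apical transporters, had 20.9, 19.6 and 11.5 CPM in controls and 39.6, 44.6 and 51.7 CPM with doxycycline (log2 1.38, SE 0.259, adjusted p = 0.00527). Exons of Gpr89 on the other strand overlap 37.5% of the exon bases of Pdzk1, and Gpr89 rose from 70.4 ± 3.37 to 97.2 ± 9.42 CPM, so part of the reads may belong to either gene.

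In the terminal web, all 3 genes rose, where 21.7% of all genes did, and 1 was higher with total counts (13.5% of all genes). Spectrin is a tetramer of alpha and beta chains that crosslinks actin under the membrane. Sptbn1 (beta-II spectrin) had 288.8, 307.1 and 169.8 CPM in controls and 662.4, 826.2 and 860.9 CPM with doxycycline (log2 1.62, SE 0.262, adjusted p = 0.00292). Sptan1 (alpha-II spectrin) rose from 55.1 ± 20.7 to 103.1 ± 5.90 CPM (log2 0.91, adjusted p = 0.0294). Actn4, an alpha-actinin that crosslinks actin, had 413.5, 460.5 and 1136 CPM in controls and 1605, 1601 and 1574 CPM with doxycycline (log2 1.25, SE 0.394, adjusted p = 0.0374). The doxycycline libraries lay wholly above the controls for all 3, as for 30.0% of all genes. Control replicate 3 was the nearest control to the doxycycline libraries for Actn4, whose log2 change was 1.88 without it. The calls of Sptan1 and Actn4 were lost with total counts (0.174 and 0.117) and with any library other than control replicate 3 left out (0.0719 to 0.1). That of Sptan1 was also lost with the length trend removed (0.331).

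**Figure D2:**
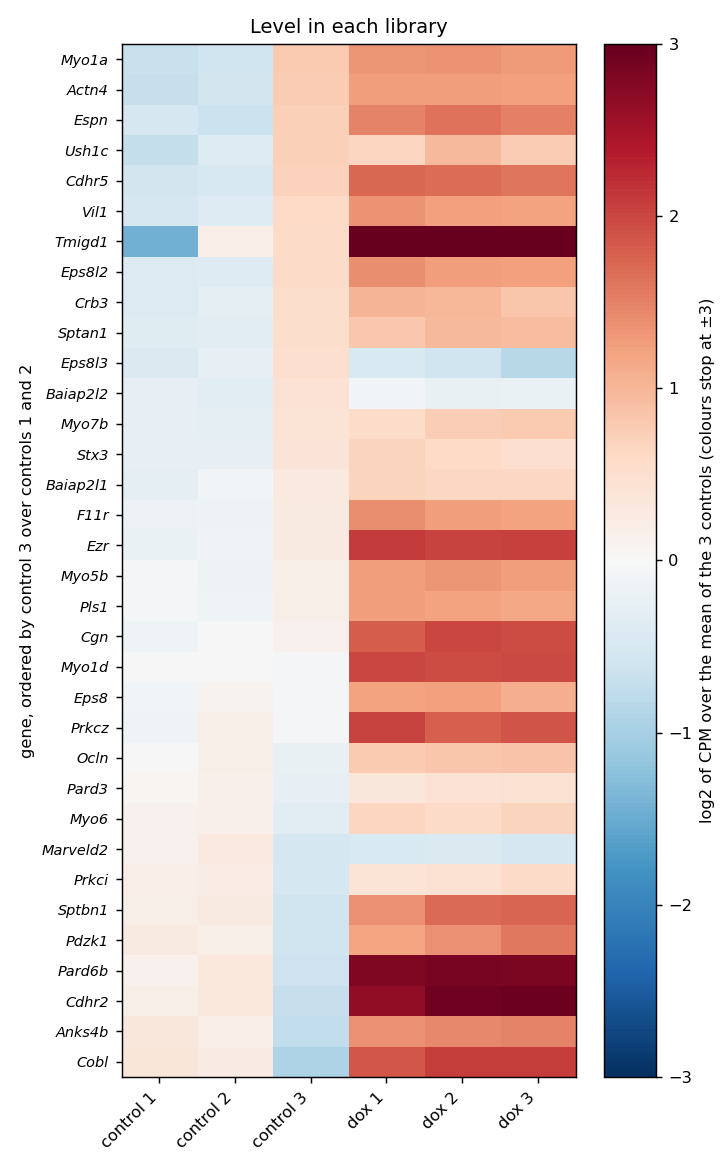
Level of each of the 34 genes in each library, as log2 of CPM over the mean of the 3 controls, with red higher and blue lower and colours that stop at ±3. Genes are ordered by control replicate 3 over the mean of the other controls, from Myo1a (1.41) to Cobl (-1.24), and the doxycycline columns are red except for Eps8l3, Baiap2l2 and Marveld2.

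Stx3, the apical syntaxin that fuses carriers with the brush border membrane, had 84.4, 84.9 and 132.5 CPM in controls and 159.0, 151.2 and 142.8 CPM with doxycycline. The means were 100.6 ± 27.6 and 151.0 ± 8.08 CPM. The groups did not overlap, but the change did not pass (log2 0.59, 95% interval 0.07 to 1.10, adjusted p = 0.063). It passed without control replicate 3 (log2 0.85, adjusted p = 2.25e-08), with DESeq2 (0.029), with limma-voom (0.0472) and with the length trend removed (0.021).

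Of the 5 polarity genes, 3 rose, where 21.7% of all genes did, and 2 were higher with total counts (13.5% of all genes). The Par complex joins the scaffolds Par3 and Par6 to an atypical protein kinase C, and Crumbs-3 is the transmembrane protein that anchors the apical complex. Pard6b (chromosome 2, 168081004 to 168101203) had 158.9, 180.2 and 93.9 CPM in controls and 1010, 1046 and 1024 CPM with doxycycline. It rose 7.11-fold (log2 2.83, SE 0.268, adjusted p = 3.53e-04). Prkcz, the zeta kinase, had 21.8, 26.7 and 22.8 CPM in controls and 96.9, 82.5 and 87.5 CPM with doxycycline (log2 1.91, SE 0.164, adjusted p = 2.25e-04). Both rose with little spread in the doxycycline group.

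Crb3 rose from 83.5 ± 32.1 to 161.5 ± 11.6 CPM (log2 0.95, adjusted p = 0.0274), but the call ended with total counts (0.153) and with any library other than control replicate 3 left out (0.0675 to 0.0872). Prkci, the iota kinase, had 154.2 ± 41.1 and 214.7 ± 12.2 CPM which did not pass (log2 0.48, 95% interval -0.06 to 1.02, adjusted p = 0.129). Pard3 had 60.4 ± 8.49 and 80.5 ± 3.12 CPM, which did not pass (log2 0.42, 95% interval 0.03 to 0.80, adjusted p = 0.0726). With total counts the log2 value of Pard3 was -0.03. All doxycycline libraries were above all controls for Prkci and Pard3 as well, as for 30.0% of all genes. Both passed without control replicate 3 (0.00269 and 0.00294), where 34.9% of all genes were higher. Pard3 also passed with DESeq2 (0.0266), and Prkci with the length trend removed (0.0471).

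At the tight junction, 3 of 4 genes rose, where 21.7% of all genes did. With total counts 2 were higher and 1 lower (13.5% and 39.7% of all genes). Cgn encodes cingulin, which links the junction to actin and myosin. It had 109.8, 119.3 and 131.3 CPM in controls and 426.1, 484.8 and 466.6 CPM with doxycycline (log2 1.94, SE 0.159, adjusted p = 1.92e-04). F11r, the adhesion molecule JAM-A, had 118.8, 119.6 and 161.7 CPM and then 350.1, 317.6 and 306.9 CPM (log2 1.29, SE 0.184, adjusted p = 0.00164). Both were separate between groups by more than the range of either group.

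Ocln, the membrane protein occludin, had 156.4, 174.4 and 132.5 CPM in controls and 266.3, 275.6 and 279.9 CPM with doxycycline (log2 0.83, SE 0.163, adjusted p = 0.00608), but scaling by total counts ended this call (0.0831). Marveld2, or tricellulin, seals the corners where 3 cells meet. It had 76.3, 85.4 and 48.5 CPM in controls and 50.8, 52.3 and 49.3 CPM with doxycycline, or 70.1 ± 19.2 and 50.8 ± 1.48 CPM, and did not pass (log2 -0.47, 95% interval -1.002 to 0.07, adjusted p = 0.135). Control replicate 3 was level with the doxycycline libraries, and without it Marveld2 fell by 0.66 on the log2 scale (adjusted p = 3.10e-06).

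**Figure D3:**
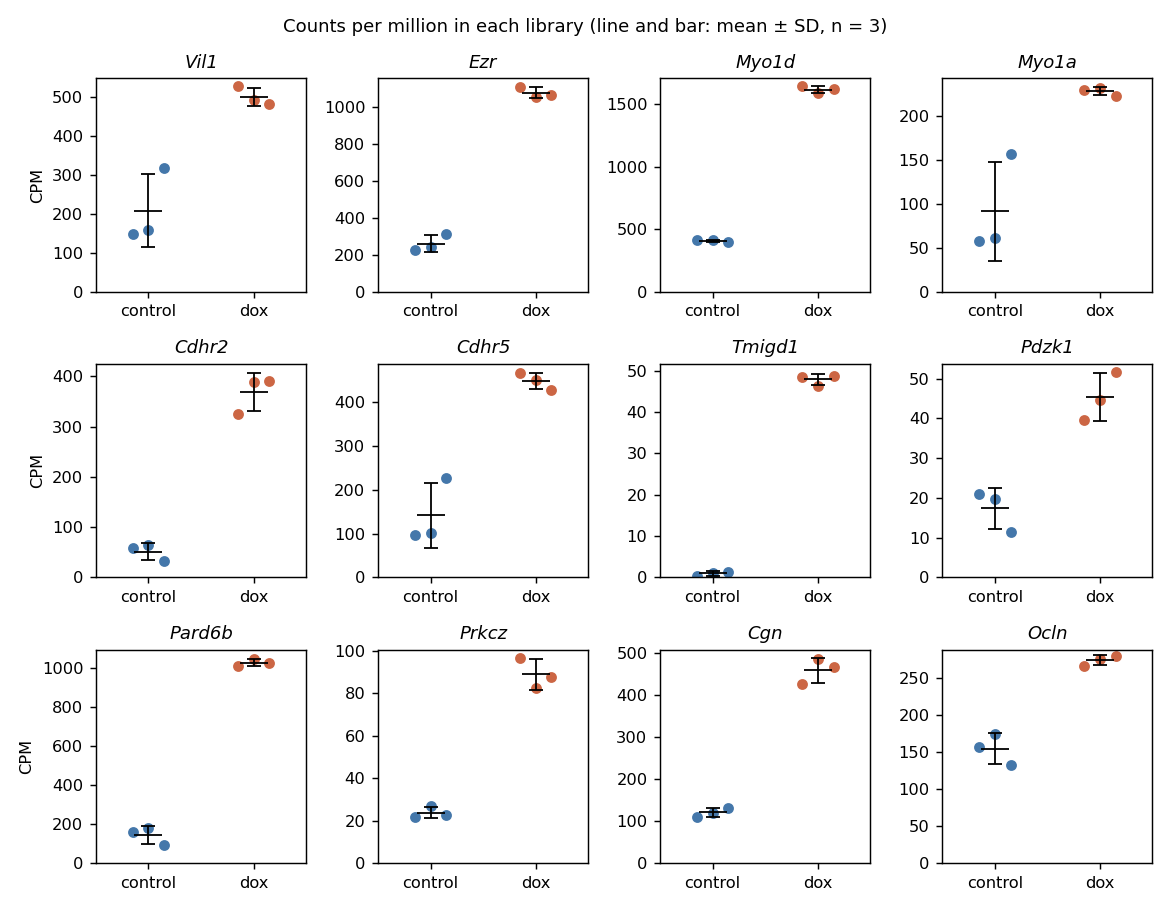
CPM of 12 of the genes in each library, with controls in blue and doxycycline in orange and the line and bar at the mean ± SD of 3 libraries. Each axis starts at 0 and has its own scale, and points within a group run from replicate 1 to 3. The doxycycline points lie above the control points in every panel, most of all for Tmigd1.

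Some of these genes are close relatives, and their ratio within a library does not depend on how libraries are scaled. For 8 pairs the log2 ratio was compared by an exact two-sided permutation test over 6 libraries, whose smallest possible p is 0.1. No pair can therefore pass the 0.05 threshold. Prkcz over Prkci was -3.03, -2.74 and -2.23 in controls and -1.07, -1.36 and -1.38 with doxycycline, a difference of 1.39 (exact p = 0.1, adjusted p = 0.16 over the 8 pairs). Marveld2 over Ocln was -1.04, -1.03 and -1.45 in controls and -2.39, -2.40 and -2.50 with doxycycline, a difference of -1.26 (exact p = 0.1, adjusted p = 0.16). The ratio of the zeta to the iota kinase gene was higher, and that of tricellulin to occludin lower, in each doxycycline library than in any control.

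Eps8l3 over Eps8 differed by -1.75 and Baiap2l2 over Baiap2l1 by -0.79, without overlap of the groups (exact p = 0.1 and adjusted p = 0.16 for each). Cdhr5 over Cdhr2 differed by -1.12, also without overlap (exact p = 0.1, adjusted p = 0.16), and by -0.41 without control replicate 3. For Myo1a over Myo1d (-0.51), Sptbn1 over Sptan1 (0.69) and Eps8l2 over Eps8 (0.19) the groups overlapped (exact p = 0.2, 0.2 and 0.6). Without control replicate 3 these differences were -0.02, 0.13 and 0.53, and without control replicate 2 that of Eps8l2 over Eps8 was -0.02.

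**Figure D4:**
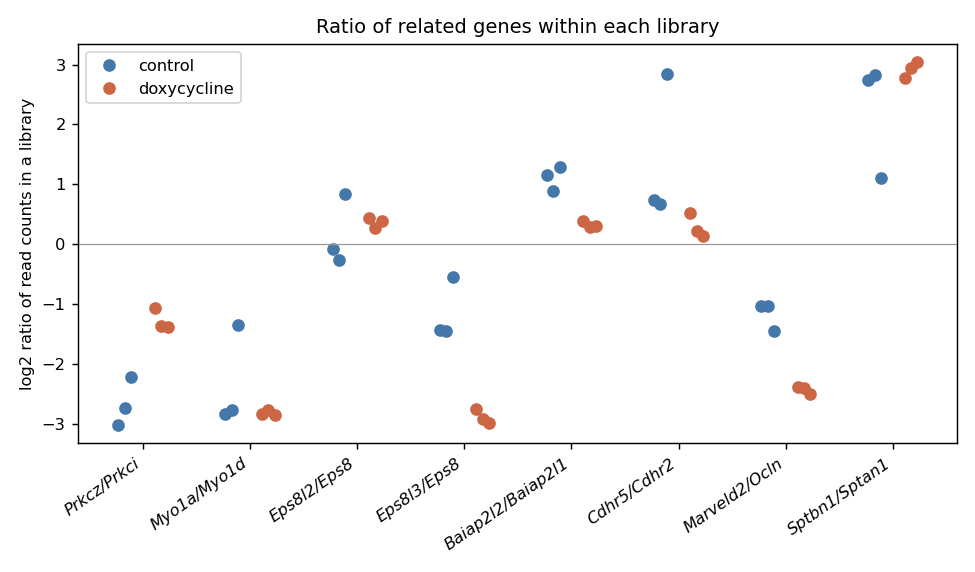
Log2 ratio of the read counts of 2 related genes within each library, for 8 pairs, with 3 control points (blue) and 3 doxycycline points (orange) per pair. Groups are apart for Prkcz/Prkci, Eps8l3/Eps8, Baiap2l2/Baiap2l1, Cdhr5/Cdhr2 and Marveld2/Ocln, and 1 control point, replicate 3, stands away from the others for Myo1a/Myo1d, Eps8l2/Eps8, Eps8l3/Eps8, Cdhr5/Cdhr2 and Sptbn1/Sptan1.

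Levels of different genes were compared as CPM per kilobase of the longest annotated transcript. In controls the highest level was that of Actn4 (172.8 CPM per kb), followed by Ezr (82.0) and Myo1d (76.4), then Crb3 (69.3), Vil1 (66.8) and Pls1 (65.0), which differed by less than their spread. Without control replicate 3 the first of these was again Actn4 (112.7), and the next were Myo1d (77.2), Ezr (73.8), Pls1 (60.9) and Crb3 (54.0), with Vil1 at rank 8 (49.3). With doxycycline Actn4 (411.0 CPM per kb) and Ezr (341.1) were again first, then Myo1d (302.2) and Pard6b (302.0), which differed by less than their spread, then Cdhr5 (170.8) and Vil1 (160.5). Pard6b stood at rank 12 of 34 in controls (42.5 CPM per kb), or rank 7 without control replicate 3, and at rank 4 with doxycycline. Cdhr2 moved from rank 26 to rank 13 and Baiap2l2 from rank 7 (rank 10 without control replicate 3) to rank 20. Tmigd1 had the lowest level in controls (0.663 CPM per kb) and Myo7b the lowest with doxycycline (5.45).

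Control replicate 3 split the 34 genes. Relative to the mean of the other controls, 20 were higher in it, by 0.20 to 1.41 on the log2 scale, and 14 lower, by -0.05 to -1.24. The 20 had a median transcript GC content of 53.6% and a median length of 3206 bases, and the 14 had 49.8% and 4348 bases. Across the 34 genes, which share the same libraries, the Spearman correlation of this deviation was 0.51 with GC content and -0.39 with length. Over 12210 tested genes it was 0.26 with GC content and -0.49 with length. The change with doxycycline had correlations of 0.07 with GC content and 0.09 with length over the 34 genes. With the length trend removed from each library, the calls of Myo7b and Sptan1 were lost and those of Stx3 and Prkci were gained.

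Other genes of the same structures were followed through 6 fixed lists. Of 21 enzymes and transporters carried by the brush border, 14 rose and 4 fell, with a median log2 change of 1.09. Of all genes tested, 21.7% rose and 23.6% fell. The aminopeptidase gene Anpep rose from 172.9 ± 9.46 to 1529 ± 245 CPM, Enpep, another aminopeptidase, from 182.5 ± 34.2 to 1202 ± 164 CPM, while Slc15a1, which encodes the apical carrier of di- and tripeptides, rose from 10.4 ± 1.07 to 56.5 ± 2.59 CPM. The 4 that fell, named after their values were seen, were the trehalase gene Treh (15.9 ± 6.08 to 3.20 ± 1.01 CPM), the sodium-proton exchanger gene Slc9a3 (41.1 ± 15.1 to 19.9 ± 2.88 CPM), Ggt1 (23.1 ± 9.98 to 11.2 ± 2.39 CPM) and the neutral amino acid transporter gene Slc6a19 (110.4 ± 11.4 to 68.1 ± 7.40 CPM). Between 1 and 5 of this list fell with single libraries left out, where 14.3% to 35.1% of all genes did.

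Of 27 other microvillus and terminal web genes tested, 13 rose and 3 fell (median 0.83), against 21.7% and 23.6% of all genes. Slc9a3r1, which encodes the scaffold NHERF1 that binds ezrin, rose from 362.6 ± 15.3 to 2181 ± 65.9 CPM (log2 2.59, adjusted p = 7.29e-05). Mpp1, a membrane scaffold, rose from 79.1 ± 13.4 to 449.1 ± 13.4 CPM. Lcp1, or L-plastin, a bundling protein best known from blood cells, fell from 109.9 ± 14.9 to 8.17 ± 1.35 CPM (log2 -3.75, adjusted p = 6.26e-05). The ezrin partner and the plastin thus moved in opposite directions.

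Of 20 apical trafficking genes, 8 rose and 0 fell (median 0.62), where 21.7% of all genes rose and 23.6% fell. Without control replicate 3, 17 rose, where 34.9% of all genes did. With total counts 4 rose and 1 fell, where 13.5% of all genes rose and 39.7% fell. Mal, a raft protein of apical transport, rose from 2.46 ± 0.80 to 57.0 ± 5.75 CPM (log2 4.53, adjusted p = 8.21e-05) and its relative Mal2 from 459.1 ± 84.2 to 928.8 ± 35.03 CPM. The vesicle SNARE gene Vamp7 rose from 47.0 ± 4.27 to 75.3 ± 4.85 CPM, which did not pass with total counts (0.224) or without doxycycline replicate 3 (0.0518). Of 16 other polarity genes tested, 6 rose (37.5%) and 2 fell (12.5%), with a median of 0.36, or -0.09 with total counts. Mpp5, which encodes the Crumbs partner Pals1, rose from 58.3 ± 20.8 to 214.5 ± 17.4 CPM, Patj, another Crumbs scaffold, from 39.1 ± 4.97 to 99.8 ± 1.34 CPM, and the Cdc42 regulator Arhgap17 from 26.3 ± 2.64 to 49.7 ± 3.51 CPM.

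Of 16 other tight junction genes tested, 10 rose and 1 fell (median 0.99), against 21.7% and 23.6% of all genes. Ildr1, an angulin of tricellular corners, rose from 21.7 ± 6.45 to 246.4 ± 17.3 CPM (log2 3.50, adjusted p = 1.49e-04). Tjp1, or ZO-1, the main junction scaffold, rose from 119.2 ± 44.9 to 550.4 ± 23.7 CPM, and Cgnl1, the relative of cingulin, from 31.0 ± 11.1 to 174.4 ± 2.64 CPM. Of 16 transcription factors of enterocytes, 5 rose (31.2%) and 3 fell (18.8%), against 21.7% and 23.6% of all genes. Their median was 0.17, or -0.28 with total counts. Without control replicate 3, 9 rose and 6 fell, where 34.9% of all genes rose and 35.1% fell. Maf rose from 43.0 ± 1.59 to 605.5 ± 25.4 CPM and Klf4 from 46.2 ± 10.2 to 940.7 ± 44.4 CPM, while Cdx1 fell from 292.6 ± 60.1 to 16.5 ± 0.91 CPM. Hnf4a, a factor of absorptive cells named after its values were seen, rose from 1539 ± 318 to 3514 ± 184 CPM.

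**Figure D5:**
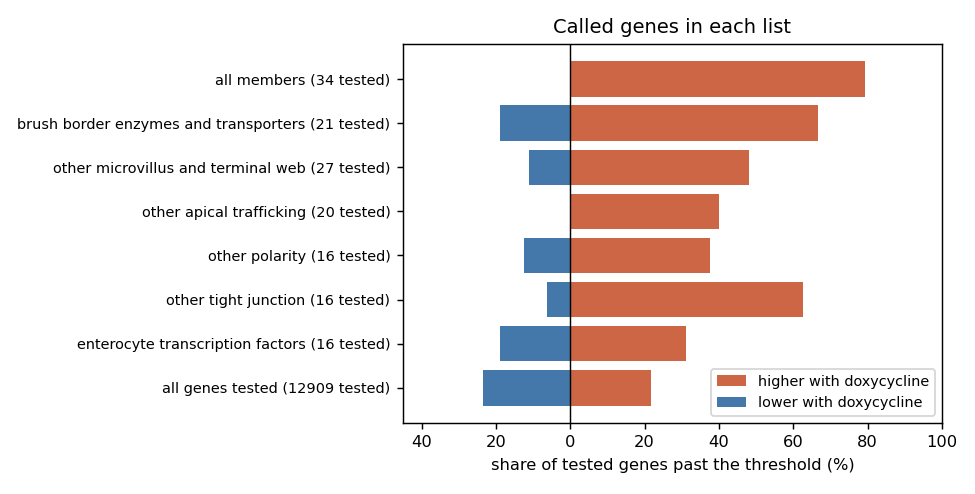
Share of tested genes that passed the adjusted threshold of 0.05 in each list, with higher genes to the right in orange and lower genes to the left in blue, beside all 12909 genes tested. The 34 genes (all members) have 79.4% higher and 0% lower, and all genes have 21.7% higher and 23.6% lower.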

How the data were processed

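The deposited table holds whole-number read counts per Entrez gene ID for the 6 libraries, which the authors made on mm10 per the submitters' processing notes. RNA came from a column kit and libraries from a TruSeq RNA kit, sequenced on a NextSeq, per the labels. The aligner, counting tool, annotation, strand use and filters are not given in the sources used here. Of the 34 genes, 10 share exon bases with another gene in GENCODE M21, 3 of them over 10%. Symbols and positions came from RefSeq (GRCm38.p6), which matched 24570 IDs. Transcript lengths and GC content came from GENCODE M21 (GRCm38), the longest transcript per ID. No protein sequences were used here.

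Libraries were grouped by their titles. Genes were filtered by edgeR's filterByExpr by group, scaled by TMM and tested with the robust quasi-likelihood F-test (edgeR 4.0.16, R 4.3.3), with Benjamini-Hochberg adjustment over 12909 genes and a threshold of 0.05. Standard errors came from the F statistic. The fit was tested on simulated data with few changed genes, equally many raised and lowered, and no outlying library. That test does not cover a contrast in which 45.3% of genes passed or a library that stands apart. CPM use TMM-scaled library sizes. The members, lists and tests were chosen with earlier results of these data known. All 34 genes are named: those past the threshold and at least 2-fold changed, with Vil1, Ezr and Ocln, by library, the others by mean and SD, with library values of Stx3, Marveld2 and the Ush1c controls added after these were seen. From each of 6 pathway lists the 3 genes with the smallest adjusted p and a mean of at least 5 CPM are named. Alternatives were RLE factors, total counts, no low-count filter, DESeq2 1.42.0, limma-voom (limma 3.58.1), the replicate number as a block, removal of a transcript length trend and leaving out each library. Removal of a GC trend was added after the data were seen.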

Additional observations from a re-analysis of the deposited data

How the results depend on the processing

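The count of the 34 genes that were higher, 27, ranged from 18 to 31 with single libraries left out, and that of lower genes from 0 to 2. The median of the 34 ranged from 1.13 to 1.38 in those fits and was 0.83 with total counts, where 2 genes were lower. Over all genes, 1945 to 4632 were higher and 1888 to 4654 lower with single libraries left out, and 1747 and 5131 with total counts. As shares of the genes tested, these were 14.8% to 34.9% and 14.3% to 35.1%, and 13.5% and 39.7% with total counts. Same-numbered deviations from the group means correlated at -0.30, 0.12 and -0.19. Deviations within a group sum to 0 and control replicate 3 stood apart, so these values cannot tell whether replicate numbers pair the libraries. With the replicate number as a block, 4509 of 12909 genes passed, and among the 34 the calls of Baiap2l1 (adjusted p = 0.0649), Myo7b (0.0595) and Myo6 (0.0737) were not made, nor was that of Vamp7 (0.0516). In the fixed lists, the block left 0 of the other tight junction genes lower, where 17.4% of all genes were lower. With total counts the lower genes numbered 6 in other microvillus and terminal web, 1 in other apical trafficking (4 higher), 5 in other polarity, 3 in other tight junction and 7 in enterocyte transcription factors. On that scale 39.7% of all genes tested were lower and 13.5% higher. The length trend gave 4 lower in other polarity and 2 in other tight junction, where 26.1% of all genes were lower. With single libraries left out, the lower counts ranged from 1 to 5 for brush border enzymes and transporters, 2 to 4 for other microvillus and terminal web, 1 to 4 for other polarity, 0 to 2 for other tight junction and 3 to 6 for enterocyte transcription factors, and the higher counts from 5 to 17 for other apical trafficking and 4 to 9 for enterocyte transcription factors. Baiap2l2 changed sign without control replicate 3 (its log2 change ranged from -0.313 to 0.127 with single libraries left out) and with the length trend removed (0.014), Pard3 with total counts (-0.028), and Eps8l2 over Eps8 without control replicate 2 (its difference ranged from -0.024 to 0.531). The cause of these changes was not tested. RLE factors and no low-count filter changed no call of the 34. Depth limits Tmigd1 in controls, where each library held at most 14 counts.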

Other observations

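Relatives of the 34 genes, named after their values were seen, fell, rose or did not pass. Of the plastins, Pls1 rose while Lcp1 fell and Pls3 fell from 20.2 ± 4.45 to 11 ± 0.254 CPM (log2 -0.88, edgeR adjusted p = 0.0156). Of the Par6 scaffolds, Pard6b rose, Pard6g fell from 3.40 ± 2.01 to 0.318 ± 0.215 CPM (adjusted p = 0.00839), and Pard6a had 6.94 ± 3.13 and 3.26 ± 0.597 CPM (adjusted p = 0.0534). The class I myosin gene Myo1c rose from 67.9 ± 17.8 to 635.8 ± 25.2 CPM (adjusted p = 1.37e-04). Moesin, a relative of ezrin encoded by Msn, rose from 0.186 ± 0.203 to 2.86 ± 0.119 CPM (adjusted p = 0.00405). The differences between relatives were not tested.

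At tricellular corners the angulin gene Ildr1 rose, while the other angulin gene of this epithelium, Lsr, had 246.9 ± 31.6 and 242.8 ± 4.93 CPM (adjusted p = 0.915) and Marveld2 did not pass. The scaffold gene Tjp1 rose, and Tjp3 did not pass (40.6 ± 7.13 and 51.5 ± 6.69 CPM, adjusted p = 0.184).

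Hnf4g, a transcription factor gene of absorptive cells singled out after its values were seen, had 144.3, 130.5 and 8.25 CPM in controls and 193.1, 229.3 and 236.7 CPM with doxycycline (adjusted p = 0.27). Control replicate 3 was far below the other controls for it, and without that library Hnf4g passed (log2 0.69 against 1.22 with it, adjusted p = 1.39e-06).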
